A study of Rattus norvegicus with 70 samples.

Results

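The 39 genes described here mark successive segments of the rat nephron, the tubule that filters blood and recovers solutes and water. They encode transporters, channels, endocytic receptors and other segment markers, were picked by symbol from a list of nephron genes, and each was found as 1 row among the 17048 gene rows of the deposited read count table. By segment, 22 belong to the proximal tubule, 3 to the thick ascending limb, 5 to the distal convoluted and connecting tubule, 7 to the collecting duct and 2 to podocytes, the filter cells of the glomerulus. In the kidney, 38 of the 39 had reads and were tested. Pvalb, which encodes the calcium-binding protein parvalbumin and marks the early distal convoluted tubule in rodents, had 0 counts in all 16 kidney libraries. A count of 0 allows up to 3 counts, or 0.625 CPM (counts scaled to the library total) in the library with the fewest reads; this floor covers counting error only.

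The libraries came from Sprague-Dawley rats at postnatal day 63, and all were made with a QuantSeq 3′ mRNA-Seq kit, which reads the 3′ end of transcripts. Pregnant dams received vehicle, bisphenol A (BPA) at 500 mg/kg/day, or a mixture (Mix) by mouth between gestational day 6 and lactation day 6. The Mix combined BPA at 160, bisphenol F (BPF) at 160 and bisphenol S (BPS) at 180 mg/kg/day. Litters were reduced to 3 pups of each sex per dam on postnatal day 4, and pups were then dosed directly with their dam's substance at 250 mg/kg/day from day 7 to day 63. Of 70 libraries, 16 are kidney: 3 vehicle, 3 BPA and 3 Mix libraries from males, and 2 vehicle, 2 BPA and 3 Mix libraries from females. BPA carries an isopropylidene bridge between its phenol rings, BPF a methylene bridge and BPS a sulfonyl bridge, and neither BPF nor BPS given alone could be read out here. Each kidney library carries its own code in the labels, shared with libraries of other organs, but the litter is not given, so p-values measure the spread between these libraries.

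The proximal tubule takes back most of the filtered glucose, phosphate, amino acids and bicarbonate, and secretes organic cations and anions into the urine. The thick ascending limb and the distal convoluted tubule recover salt without water, and the collecting duct sets final water and sodium excretion under vasopressin and aldosterone. Several rodent proximal tubule transporters are known to be set by sex hormones.

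Kidney libraries held 4803807 to 10218159 counts. Gene levels within the kidney are normalised CPM, scaled by the trimmed mean of M-values (TMM) over the 16 kidney libraries. Sums over marker genes of other cell types are CPM scaled to library totals, ribosomal RNA rows included. Across these libraries the counts per gene ran from 8 to 67 for Slc5a1 and from 21848 to 70619 for Kap, so the rarer genes carry more counting error. Reads assigned to 8 ribosomal RNA rows differed between groups: they made up 1.71% to 3.50% of counts in male vehicle, 16.4% to 37.2% in male BPA and 1.42% to 20.2% in male Mix libraries. In females they made up 37.1% and 19.2% in vehicle libraries 1 and 2, 17.2% and 20.9% in BPA, and 17.5% to 20.6% in Mix libraries. The second female vehicle library stood apart, with 18 of 22 proximal tubule genes below all 3 male vehicle libraries (median log2 ratio to the male vehicle mean of -1.46). In the same library all 7 collecting duct genes (median 0.95), all 4 distal genes with reads (0.99) and both podocyte genes (0.74) lay above all 3. The 3 male Mix libraries also differed among themselves, with 10, 4 and 16 of 22 proximal tubule genes below all male vehicle libraries in libraries 1, 2 and 3. In bulk tissue, fewer cells of a type and less RNA per cell cannot be told apart.

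RefSeq promoters, from 250 bases before to 50 bases after the gene start on assembly GRCr8, were found for 35 of the 39 genes; those of Hsd11b2, Slc22a6, Scnn1a and Calb1 were not in the table used. They were searched on both strands for sites of hepatocyte nuclear factors, which are known regulators of proximal tubule genes. The 13-letter consensus of HNF1, with at most 2 mismatches, was present in 4 of the 35 (Slc6a18, Slc7a9, Slc12a1 and Cubn), against 1.19% of 33469 promoters in the table. The HNF4 motif CAAAGTCCA was present in 1 of the 35, Slc3a1, against 0.391% of all promoters. The estrogen-related receptor motif TCAAGGTCA was in 0 of the 35, against 0.433%. Overlap between motifs was not scored, and a match describes letters and not binding.

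Sequences of 4 promoters are shown for the genes on which the results turn. Slc22a2 (chr1:50710970-50711269, minus strand) had the largest sex difference in the kidney among the 38 genes tested there, and Cubn (chr17:81501645-81501944, minus strand) was the only one past the threshold in the opposite direction. Slc7a9 (chr1:97246632-97246931, plus strand) and Slc3a1 (chr6:15394700-15394999, minus strand) encode the light and heavy subunits of the same cystine transporter. Capitals mark the HNF1 match in Cubn (bases -194 to -182 from the gene start) and Slc7a9 (-175 to -163), and the reverse-strand HNF4 match in Slc3a1 (-89 to -81). Slc22a2 held none of the 3 motifs.
Slc22a2: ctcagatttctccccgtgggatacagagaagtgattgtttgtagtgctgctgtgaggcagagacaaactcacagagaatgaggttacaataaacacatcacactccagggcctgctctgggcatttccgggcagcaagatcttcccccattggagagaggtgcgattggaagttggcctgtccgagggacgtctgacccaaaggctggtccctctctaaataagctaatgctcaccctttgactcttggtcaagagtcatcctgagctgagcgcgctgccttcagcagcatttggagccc
Cubn: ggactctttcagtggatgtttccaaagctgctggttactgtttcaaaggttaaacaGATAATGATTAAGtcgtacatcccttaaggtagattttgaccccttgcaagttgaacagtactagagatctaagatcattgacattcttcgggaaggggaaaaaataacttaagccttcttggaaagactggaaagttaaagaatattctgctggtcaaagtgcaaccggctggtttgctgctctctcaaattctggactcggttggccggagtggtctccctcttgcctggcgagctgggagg
Slc7a9: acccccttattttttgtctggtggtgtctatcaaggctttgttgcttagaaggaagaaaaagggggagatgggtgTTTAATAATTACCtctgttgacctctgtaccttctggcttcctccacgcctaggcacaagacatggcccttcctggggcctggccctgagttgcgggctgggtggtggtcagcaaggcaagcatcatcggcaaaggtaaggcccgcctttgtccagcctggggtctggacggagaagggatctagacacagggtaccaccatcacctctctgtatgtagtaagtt
Slc3a1: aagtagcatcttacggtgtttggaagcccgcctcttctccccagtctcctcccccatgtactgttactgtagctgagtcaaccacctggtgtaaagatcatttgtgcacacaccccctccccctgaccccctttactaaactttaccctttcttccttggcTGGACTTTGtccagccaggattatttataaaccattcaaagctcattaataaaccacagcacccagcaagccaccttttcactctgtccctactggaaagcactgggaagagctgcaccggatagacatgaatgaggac

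Levels were first compared across the organs of vehicle animals, in CPM without TMM scaling and without a test, since the genes were chosen as kidney genes. Of the 38 with kidney reads, 36 had their highest median in the kidney. In 30 genes every kidney library lay above every library of the other organs, which was the case for 4.75% of all 17048 rows. Without any 1 of the 5 vehicle kidney libraries the number was 30 to 34. In the proximal tubule, Kap, which encodes kidney androgen-regulated protein, had a kidney median of 6462 CPM (3862 to 7802 over 5 libraries) and at most 18.7 CPM in any other vehicle library. Aqp1, the constitutive water channel of this segment, had a kidney median of 2889 CPM (1110.4 to 3260 CPM), against medians of 119 CPM in the thyroid and 29.4 CPM in the ovary. For both genes the kidney libraries stood clear of all others.

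The same held for most genes of the other segments. In the thick ascending limb, Umod (uromodulin, the most abundant urinary protein) had a kidney median of 2087 CPM and at most 8.55 CPM elsewhere. Slc12a1, the Na-K-2Cl cotransporter blocked by loop diuretics, had a kidney median of 1001 CPM and at most 5.78 CPM elsewhere, in the testis. Of the distal genes, Slc12a3, the thiazide-sensitive NaCl cotransporter, had a kidney median of 418 CPM and Egf, the epidermal growth factor precursor, 153 CPM. Their highest medians elsewhere were 8.32 CPM in the testis and 6.05 CPM in the thyroid. In the collecting duct, Aqp2, the vasopressin-regulated water channel, had a kidney median of 285 CPM and at most 3.61 CPM elsewhere. Atp6v1b1, the proton pump subunit of intercalated cells, had a kidney median of 149 CPM and at most 0.825 CPM elsewhere. The podocyte gene Nphs1 (nephrin, of the slit diaphragm) had a kidney median of 106 CPM and at most 3.03 CPM elsewhere. Podxl (podocalyxin, its surface sialoprotein) had a kidney median of 151 CPM and a thyroid median of 73.2 CPM, and its kidney and thyroid libraries overlapped.

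Relative to the kidney, levels in another organ were highest for 5 genes with kidney reads. Scnn1b, the beta subunit of the epithelial sodium channel, had a median of 40.0 CPM in the thyroid and 13.5 CPM in the kidney, with every thyroid vehicle library above every kidney one. The alpha subunit Scnn1a had medians of 35.9 CPM in the kidney and 21 CPM in the thyroid, and the gamma subunit Scnn1g 16.2 and 7.09 CPM, both with overlapping libraries. Slc2a2, the GLUT2 glucose transporter of hepatocytes and of the basolateral proximal tubule, had a median of 180.9 CPM in the liver and 90.7 CPM in the kidney. Every liver vehicle library was above every kidney library for it. Podxl, given above, was the fifth. Some genes with a lower ratio also had many reads elsewhere, among them Lrp2 at a thyroid median of 122 CPM. Slc22a8 was at 337, 204 and 195 CPM in male vehicle livers and at 0.482, 0 and 0.262 CPM in female ones, the sexes standing far apart. Pvalb, without kidney reads, had a thyroid median of 24.7 CPM with a range of 0 to 248 CPM; it is also a marker of fast skeletal muscle, and the part of adjacent muscle was not tested.

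**Figure D1:**
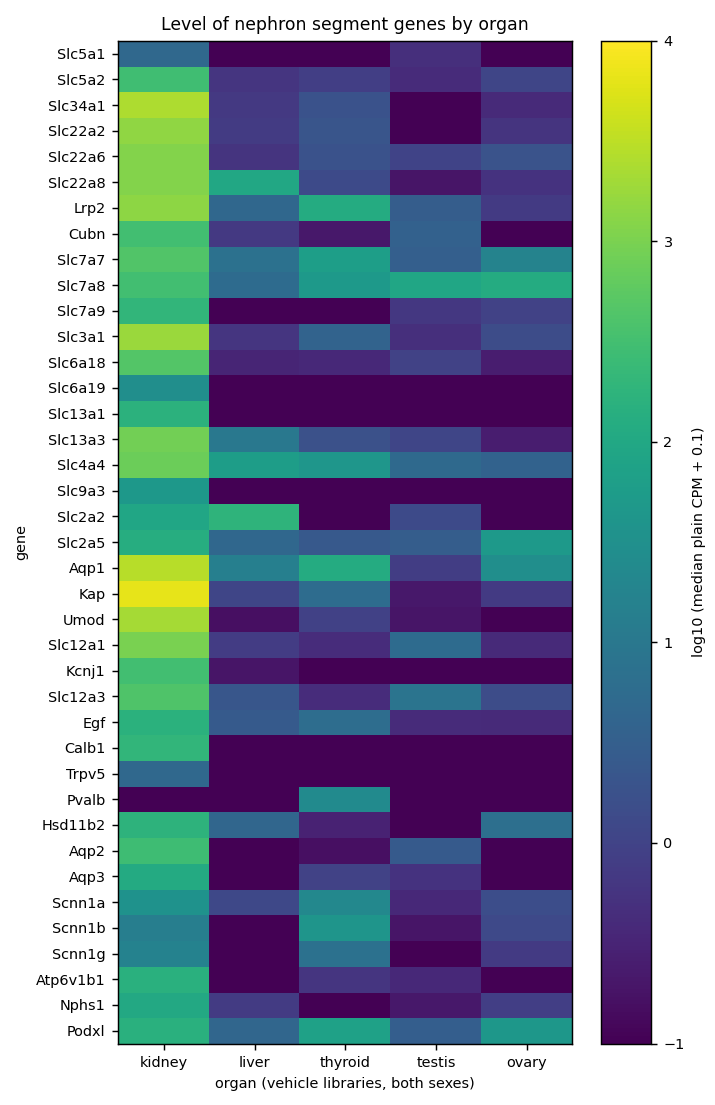
Median CPM, without TMM scaling, of the 39 nephron genes (rows, by segment) in vehicle libraries of 5 organs (columns), as log10 of CPM plus 0.1. The kidney column is highest for 36 genes; Scnn1b and Pvalb are highest in the thyroid and Slc2a2 in the liver.

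The sexes were then compared within the kidney. Over all 16 kidney libraries, in a fit of 6 sex-by-treatment groups averaged over the 3 treatments, 7 of 38 genes differed between females and males at an adjusted p below 0.05 (edgeR's quasi-likelihood test, Benjamini-Hochberg adjustment over 11651 genes). The share over all genes tested was 11.5%. All 7 are proximal tubule genes: 6 were lower in females, where 8.09% of all genes were, and 1 was higher, where 3.42% were. The median female minus male log2 difference over the 22 proximal tubule genes was -0.16, against -0.02 over all genes.

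Slc22a2 encodes OCT2, the basolateral uptake transporter for organic cations such as metformin. Its lowest, median and highest normalised CPM were 1163, 1418 and 1939 over the 9 male libraries and 118, 184 and 301 over the 7 female libraries. All female libraries lay below all male libraries, which was the case for 1.55% of genes; the reverse, seen for 0 of the 38, was the case for 0.712%. The log2 difference was -2.90 ± 0.14 (SE; adjusted p = 7.31e-10), or 7.44-fold lower in females. The promoter printed above for this gene carries no HNF1 or HNF4 match as searched.

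Slc2a5 encodes GLUT5, the apical fructose transporter. Its lowest, median and highest values were 92.0, 129 and 169 normalised CPM in males and 20.9, 43.9 and 75.2 in females, again without overlap. The log2 difference was -1.58 ± 0.17 (SE; adjusted p = 5.81e-06), or 3.00-fold lower in females. Slc22a6 encodes OAT1, the basolateral exchanger that takes up p-aminohippurate and many drugs. It reached 641, 1030.4 and 1847 normalised CPM in males and 380.2, 661 and 1016 in females, with overlapping ranges, and was 1.67-fold lower in females (log2 difference -0.74 ± 0.16, SE; adjusted p = 0.00664). Its neighbour on chromosome 1, Slc22a8 (OAT3), did not pass the test.

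Aqp1 ranged over 1788, 2486 and 3026 normalised CPM (lowest, median, highest) in males and 958, 1955 and 2140.4 in females, with a log2 difference of -0.55 ± 0.13 (SE; adjusted p = 0.00902). Slc3a1, the heavy subunit rBAT of the cystine and dibasic amino acid transporter, ranged over 1555, 1724 and 2003 in males and 946, 1231 and 1683 in females (log2 difference -0.47 ± 0.10, SE; adjusted p = 0.00368). Slc6a18, an apical glycine and neutral amino acid transporter, ranged over 419, 509 and 711 in males and 299.7, 378 and 435 in females (log2 difference -0.50 ± 0.12, SE; adjusted p = 0.0119). Ranges overlapped for all 3 genes.

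Cubn encodes cubilin, the receptor that takes up albumin and the intrinsic factor complex together with megalin. Its lowest, median and highest values were 104, 156 and 288 normalised CPM in males and 256, 369.8 and 746 in females, so that the ranges overlapped only between the highest male and lowest female libraries. It was 2.20-fold higher in females (log2 difference 1.14 ± 0.20, SE; adjusted p = 0.000774). Lrp2, megalin itself, ranged from 917 to 1532 normalised CPM in males and from 769 to 2251 in females and did not pass the test. Kap, whose mouse counterpart is known for induction by androgen, was near the threshold (log2 difference -0.51 ± 0.17, SE; adjusted p = 0.0540).

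**Figure D2:**
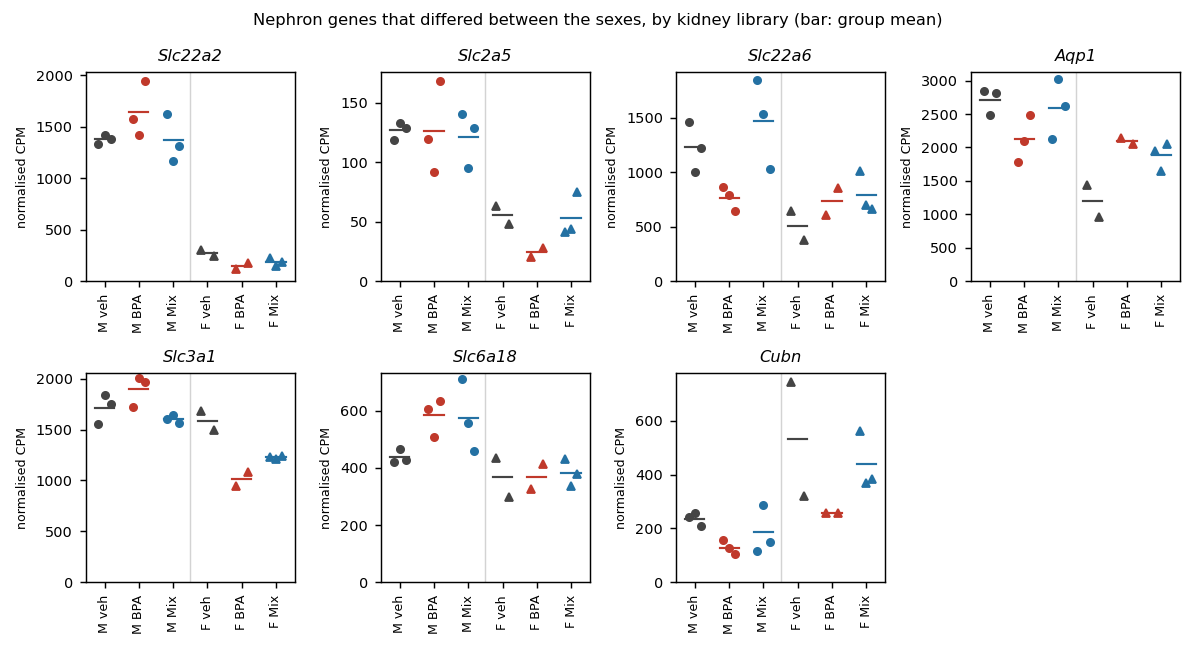
Normalised CPM per kidney library of the 7 genes that differed between the sexes, by sex and treatment (males circles, females triangles, bar for the group mean). Slc22a2 and Slc2a5 separate the sexes completely; Cubn is the gene with higher female values.

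Slc22a2, Slc22a6, Slc2a5 and Aqp1 stayed past the threshold without any 1 of the 16 libraries and under all 7 other settings, a fit with the ribosomal RNA share as a covariate among them. Among BPA libraries alone, however, the sexes overlapped for Aqp1 and Slc22a6. Aqp1 was at 1788, 2090 and 2486 normalised CPM in male and 2140 and 2051 in female BPA libraries. Slc22a6 was at 863, 792 and 641 in male and 611 and 860 in female BPA libraries. In vehicle and in Mix libraries the sexes were separated for both genes. The vehicle groups were also compared alone by edgeR, with the spread taken from all 16 kidney libraries. The log2 differences were -2.33 for Slc22a2, -1.26 for Slc22a6, -1.19 for Slc2a5 and -1.18 for Aqp1. They were 1.17 for Cubn (adjusted p = 0.0538), -0.11 for Slc3a1 (adjusted p = 0.751) and -0.25 for Slc6a18 (adjusted p = 0.517), so these 3 lost the call there. The female side held 2 libraries, the second with low values over many proximal tubule genes. Among these were Aqp1 (1446 and 958 normalised CPM) and Slc22a6 (643 and 380).

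**Figure D3:**
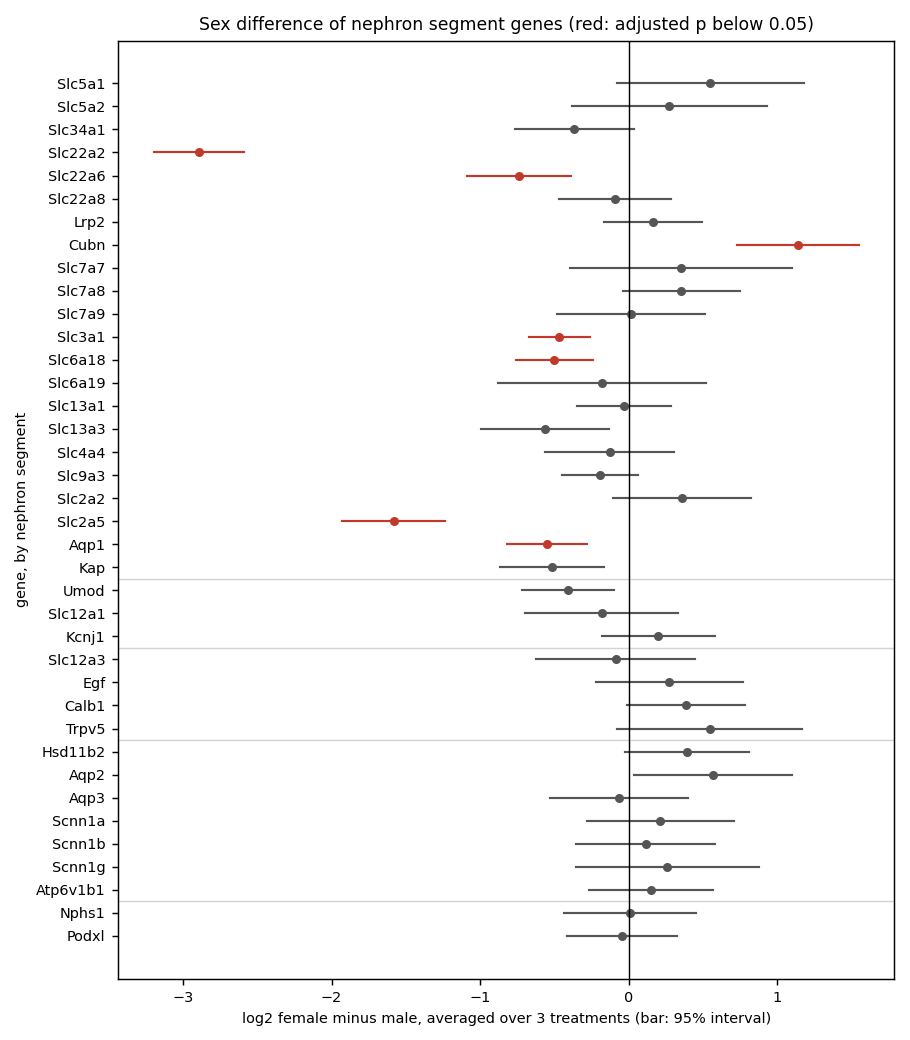
Female minus male log2 difference with its 95% interval for 38 nephron genes, averaged over the 3 treatments and ordered by segment. Slc22a2 at -2.90 and Slc2a5 at -1.58 lie farthest below 0, and Cubn at 1.14 lies above it.

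Proximal tubule genes outside the list followed no common direction between the sexes. Of 35 tested among 38 further proximal tubule genes, 7 were higher and 7 lower in females, with a median log2 difference of -0.10. Slc22a7 (OAT2) was higher in females by a log2 difference of 2.69 ± 0.32 (SE; adjusted p = 2.03e-05) and Slc22a13 (OAT10, a urate and nicotinate exchanger) by 2.48 ± 0.26 (SE; adjusted p = 6.61e-06). Slc6a13, a GABA and taurine carrier, was lower (-1.52 ± 0.40, SE; adjusted p = 0.0187). Cyp27b1, which makes active vitamin D, was higher (1.46 ± 0.45, SE; adjusted p = 0.0441). Organic anion and cation carriers of the SLC22 family thus lay on either side, with Slc22a2 and Slc22a6 lower and Slc22a7 and Slc22a13 higher in females.

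Outside the proximal tubule, edgeR called none of the 16 tested genes of the list between the sexes. The smallest adjusted p was 0.0879, in the thick ascending limb. edgeR put 2 of the 16 below an unadjusted p of 0.05 and DESeq2 called 1. Of further segment genes, 1 of 11 in the thick ascending limb was higher in females (Kcnj16, log2 difference 0.50) and 0 of 8 distal genes passed, with 3 at an unadjusted p below 0.05. In the collecting duct 3 of 19 were higher (Slc4a9 0.80, Car2 0.59, Atp6v1g3 0.57), and of the further podocyte genes Plce1 was higher (0.55). Among 11 tubule injury markers, Sox9, a transcription factor switched on in regenerating tubules, was lower in females by -2.44 ± 0.15 (SE; adjusted p = 9.89e-09). Vcam1 was also lower (-0.49) and Clu was higher (0.53).

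Markers of other cell types were read beside the sex difference. Summed over 12 spermatid and spermatocyte genes, male kidney libraries held 62.7 to 2357 CPM and female libraries 10.3 to 53.0 CPM, and all 12 were lower in females. None of the 39 nephron genes is among the 2021 rows enriched in testis over female kidney. As they were chosen as kidney genes, this could hardly have come out otherwise. The 7 adrenal cortex genes summed to at most 16.7 CPM in any kidney library, with Cyp11b1 and Cyp11b3 at 0 in all 16 and Cyp11b2 at 0 in 15. Dcn of the stromal list (0.62) and Fgb of the hepatocyte list (1.84) were higher in females. Col1a1 of the stromal list (-0.74), Kdr (-0.55) and Flt1 (-0.39) of the endothelial list, Cd68 (-0.94) and Csf1r (-0.51) of the macrophage list, Cidec of the adipocyte list (-1.94) and Hsd3b1 of the adrenal list (-2.15) were lower. The part of these cells in the sex difference was not tested.

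In males given BPA, several proximal tubule genes had lower values than in vehicle males, but none of the 38 genes passed the adjusted threshold. edgeR's quasi-likelihood test called 0 of 38, against 0.136% of all 11000 genes tested; 13 of the 38 were below an unadjusted p of 0.05, against 2306 of all genes. DESeq2 called 10 of the 38, all lower, and 869 of all genes. In 15 genes all 3 BPA libraries lay below all 3 vehicle libraries, a pattern found in 18.2% of genes, and in 3 (Slc6a18, Slc4a4 and Kap) all lay above, found in 16.4%. The median log2 difference over the 38 was -0.26, against 0.01 over all genes.

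The 3 genes with the smallest p were Slc2a2, Slc7a8 and Slc34a1. Slc34a1, the sodium-phosphate cotransporter NaPi-IIa, was at 2631, 2129.9 and 2523 normalised CPM in the vehicle libraries and at 986, 1005 and 905 in the BPA libraries. The groups did not overlap, and the log2 difference was -1.32 ± 0.25 (SE; adjusted p = 0.0565). Slc2a2 was at 106, 78.0 and 90.2 in vehicle and 40.9, 43.4 and 51.3 in BPA libraries (log2 difference -1.0 ± 0.18, SE; adjusted p = 0.0565). Slc7a8, the basolateral LAT2 amino acid exchanger, was at 323, 276 and 264 in vehicle and 138, 122 and 133 in BPA libraries (log2 difference -1.12 ± 0.21, SE; adjusted p = 0.0565). Each of the 3 genes had its groups fully separated.

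The lowest fitted log2 value belonged to Slc5a2, the SGLT2 glucose transporter that gliflozin drugs block, at 315, 252 and 297 normalised CPM in vehicle and 49.0, 64.4 and 80.4 in BPA libraries (-2.14 ± 0.41, SE; adjusted p = 0.0644). Slc7a9, the light subunit of the cystine transporter, was at 240.2, 169.5 and 177 in vehicle and 46.9, 52.5 and 58.1 in BPA libraries (-1.88 ± 0.37, SE; adjusted p = 0.0644). Its heavy partner Slc3a1 was at 1555, 1842 and 1746 in vehicle and 1724, 2003 and 1963 in BPA libraries, with overlapping groups and a log2 difference of 0.16 ± 0.16 (SE; adjusted p = 0.602). Slc7a7, the basolateral y+LAT1 light chain, was at 566, 379 and 425 in vehicle and 85.0, 106 and 180.2 in BPA libraries (-1.87 ± 0.43, SE; adjusted p = 0.0758). The apical B0AT1 transporter Slc6a19, at lower counts, was at 36.1, 37.0 and 25.1 in vehicle and 16.1, 12.5 and 19.4 in BPA libraries. Slc5a2, Slc7a9, Slc7a7 and Slc6a19 all had non-overlapping groups. Slc13a3, the basolateral dicarboxylate carrier, was at 939, 779.7 and 744 in vehicle and 347, 370.0 and 267 in BPA libraries (-1.31 ± 0.27, SE; adjusted p = 0.0713).

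Other proximal tubule genes in the same males had smaller log2 differences or values on the other side. Slc9a3, the NHE3 sodium-proton exchanger, was at 45.0, 52.6 and 40.6 in vehicle and 39.8, 42.2 and 47.2 in BPA libraries (log2 difference -0.08, 95% interval -0.46 to 0.29). Lrp2 was at 1302, 1164 and 1184 in vehicle and 1499, 1381 and 917 in BPA libraries, while Cubn was at 243, 259 and 208 against 156, 125.7 and 104. Only Cubn of this receptor pair had separated groups. Slc4a4, the basolateral bicarbonate exporter NBCe1, was at 711, 503 and 658 in vehicle and 1173, 821 and 816 in BPA libraries, all BPA values being higher (log2 difference 0.60, 95% interval -0.12 to 1.32). Slc22a2 was at 1332, 1423 and 1377 in vehicle and 1572, 1418 and 1939 in BPA libraries.

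Outside the proximal tubule no listed gene was near the threshold in males given BPA, with a smallest adjusted p of 0.236 by edgeR. Of these 16 genes, 1 was below an unadjusted p of 0.05 by edgeR and DESeq2 called 0. Umod was at 1167, 1795 and 2159 normalised CPM in vehicle and 1633, 1815 and 2451 in BPA libraries. Slc12a1 was at 494, 1127 and 862 in vehicle and 1085, 1364 and 1514 in BPA libraries. Both overlapped between groups, and the 3 thick ascending limb genes had a median log2 difference of 0.47, against -0.71 for the 22 proximal tubule genes and -0.24 for the 7 collecting duct genes. Slc12a3 was at 384, 364 and 326 in vehicle and 260.3, 293 and 106 in BPA libraries, the latter all lower. Egf was at 122, 172 and 132 against 176, 231 and 138, and Aqp2 at 145, 245 and 199 against 154, 239.6 and 228, with overlap for both. Atp6v1b1 was at 134, 200.8 and 128.3 against 102, 133 and 85.1, Podxl at 114, 129.96 and 139 against 125.7, 119 and 70.7, and Nphs1 at 122, 91.1 and 77.4 against 77.9, 77.1 and 55.6. All 3 overlapped between the groups, with most BPA values on the lower side.

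**Figure D4:**
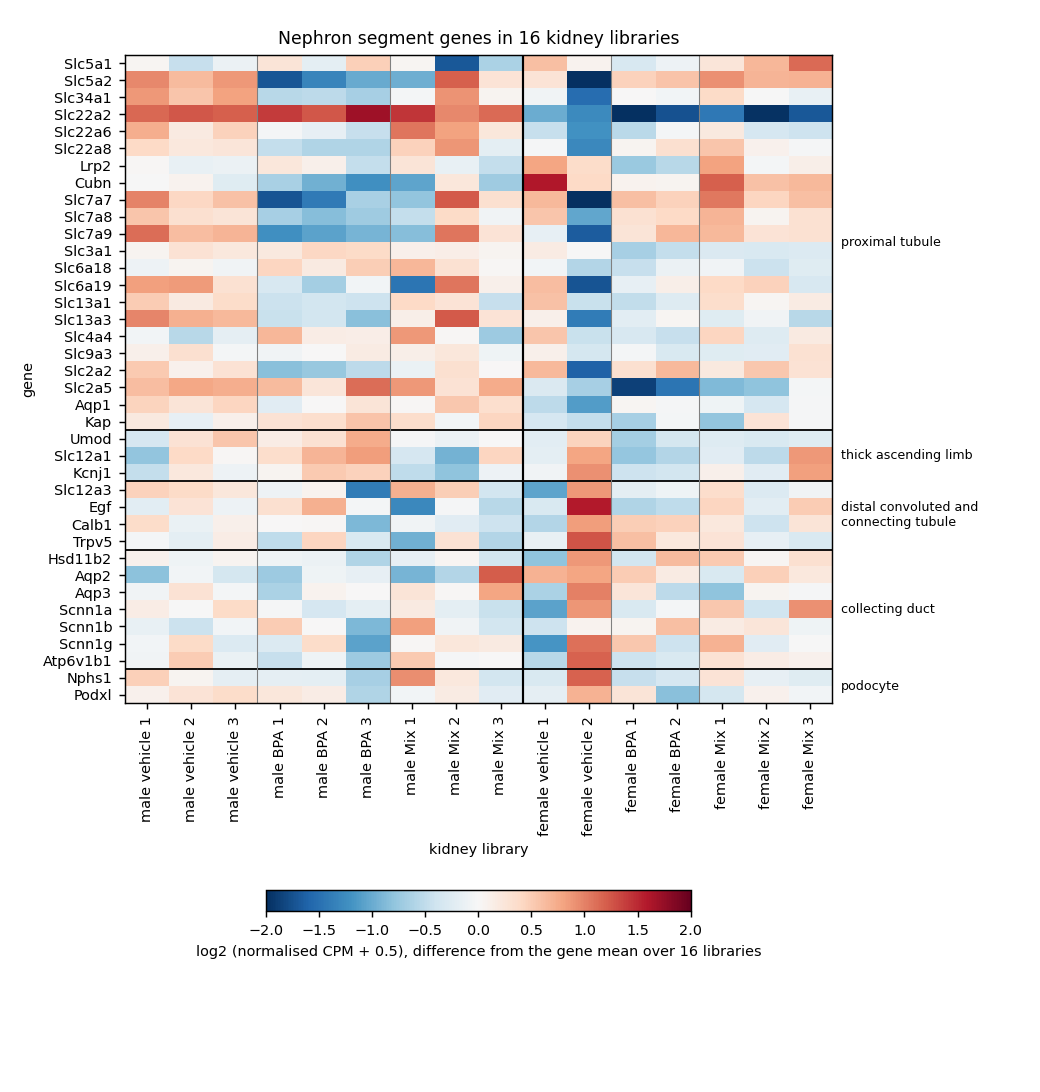
Log2 of normalised CPM, with a small pseudocount, as the difference from each gene's mean over the 16 kidney libraries, for 38 nephron genes (rows, by segment; columns, libraries by sex and treatment). Colour is limited to a range of 2 log2 units on either side. Male BPA libraries and the second female vehicle library show low values over many proximal tubule rows.

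Further proximal tubule genes lay on either side in males given BPA. Of 35 tested, edgeR called 0, with 6 higher and 10 lower at an unadjusted p below 0.05 and a median log2 difference of -0.14; DESeq2 called 2 higher and 9 lower. By edgeR none of the 10 further thick limb, 8 distal, 18 collecting duct, 10 podocyte and 11 injury genes passed in this comparison, with 1, 0, 2, 1 and 0 at an unadjusted p below 0.05 and 1, 0, 2, 1 and 0 called by DESeq2.

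Other measures moved with treatment in males. Ribosomal RNA averaged 2.58% ± 0.898 (SD, n = 3) of counts in vehicle and 30.2% ± 11.9 (SD, n = 3) in BPA libraries, without overlap. Summed over 10 stromal genes, the vehicle range was 715 to 1097 CPM, the BPA range 1433 to 1735 CPM and the Mix range 806 to 1082 CPM. With BPA edgeR called 3 of the 10 higher (Dcn by a log2 difference of 1.88, Tcf21 by 1.64 and Pdgfra by 0.95). At an unadjusted p below 0.05 by edgeR, 8 of the 10 were higher and 0 lower, and DESeq2 called 7 higher. Sums over the 12 germ cell genes lay between 391 and 737 CPM with vehicle, between 62.7 and 252 CPM with BPA and between 1325 and 2357 CPM with Mix. With BPA edgeR called 3 of these genes lower, 9 were lower at an unadjusted p below 0.05, and DESeq2 called 5 lower. With Mix against vehicle edgeR called 0, 11 were higher at an unadjusted p below 0.05, and DESeq2 called 1 higher. Of the smooth muscle, endothelial, macrophage, erythroid, adipocyte, adrenal and hepatocyte lists, edgeR called 0 genes in males given BPA or Mix against vehicle. With BPA, 3, 1, 1, 3, 1, 0 and 0 genes of these lists were at an unadjusted p below 0.05, all higher. DESeq2 called 3 smooth muscle genes and 1 each of the macrophage, erythroid and adipocyte lists, all higher. With Mix, 1, 1, 0, 0, 0, 0 and 1 were at an unadjusted p below 0.05, and DESeq2 called 0. Erythroid sums were 10488 to 15554 CPM in vehicle and 10098 to 18731 CPM in BPA libraries, and hepatocyte sums 10.8 to 84.2 and 20.7 to 137 CPM. All sums here are scaled to library totals, which include the ribosomal RNA rows. In the TMM-scaled fit all 7 erythroid genes tested had a positive log2 difference with BPA (median 0.63). So had all 7 hepatocyte genes (median 0.79). Their part in the values of the nephron genes was not tested. With the ribosomal RNA share as a covariate edgeR called 0 of the 38 nephron genes with BPA against vehicle, as it did without it. Because the share separated the vehicle from the BPA libraries, that fit cannot tell the share from the treatment.

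In males given Mix, no nephron gene passed the test against vehicle. edgeR called 0 of 38, against 0.0273% of all genes; 0 of the 38 and 1012 of all genes were below an unadjusted p of 0.05, and DESeq2 called 0 of the 38 and 88 of all genes. BPA and Mix were compared with the same 3 vehicle libraries. The smallest p belonged to Slc6a18, Slc7a8 and Egf. Slc6a18 was at 419, 467 and 428 normalised CPM in vehicle and 711, 555 and 457 in Mix libraries (log2 difference 0.39 ± 0.18, SE; adjusted p = 0.548). Slc7a8 was at 157, 288 and 208 in Mix libraries (-0.40 ± 0.21, SE; adjusted p = 0.578) and Egf at 57.8, 139 and 96.3 (-0.54 ± 0.29, SE; adjusted p = 0.596). All 3 overlapped with vehicle, and 0 of the 38 genes had separated groups in either direction, found in 8.95% of genes above and 7.05% below.

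The Mix libraries were uneven. Slc5a2 was at 82.4, 370.0 and 196 normalised CPM in male Mix libraries 1 to 3, and Slc7a7 at 164, 665 and 352. The highest of each belonged to the second library, which had the lowest ribosomal RNA share, 1.42%. The interval for Slc5a2 against vehicle ran from -1.27 to 0.45 on the log2 scale, so lower values down to that bound could not be told from vehicle at this spread. Aqp2 was at 133, 171 and 590.1 in the Mix libraries, the third alone lying above all vehicle values.

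At matched total dose, 4 of 38 genes were higher in males given Mix than in males given BPA, against 2.57% of all genes called higher and 2.93% in either direction. All 4 are proximal tubule genes, in 1 of 2 such comparisons made, male and female, with p-values adjusted over all genes of each. Slc5a2 was 3.31-fold higher (log2 difference 1.73, 95% interval 0.83 to 2.62; adjusted p = 0.0467). Its Mix values, from 82.4 to 370.0, all lay above the BPA values of 49.0 to 80.4. Slc13a3 was at 517, 1109 and 577 normalised CPM in Mix and 347, 370.0 and 267 in BPA libraries, 2.21-fold higher (log2 difference 1.15, 95% interval 0.56 to 1.74; adjusted p = 0.0454).

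Slc22a8, the OAT3 organic anion transporter, was at 1237, 1646 and 779 in Mix and 644, 591 and 589.7 in BPA libraries. It was 1.99-fold higher in Mix (log2 difference 0.99, 95% interval 0.48 to 1.50; adjusted p = 0.0464). Slc2a2 was at 67.1, 91.8 and 74.1 in Mix and 40.9, 43.4 and 51.3 in BPA libraries, 1.70-fold higher (log2 difference 0.77, 95% interval 0.36 to 1.17; adjusted p = 0.0494). For all 4 genes every Mix library exceeded every BPA library. In all, 9 genes were separated in this direction, found in 11.2% of genes, and 3 (Slc3a1, Umod and Kcnj1) in the other, found in 6.91%.

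**Figure D5:**
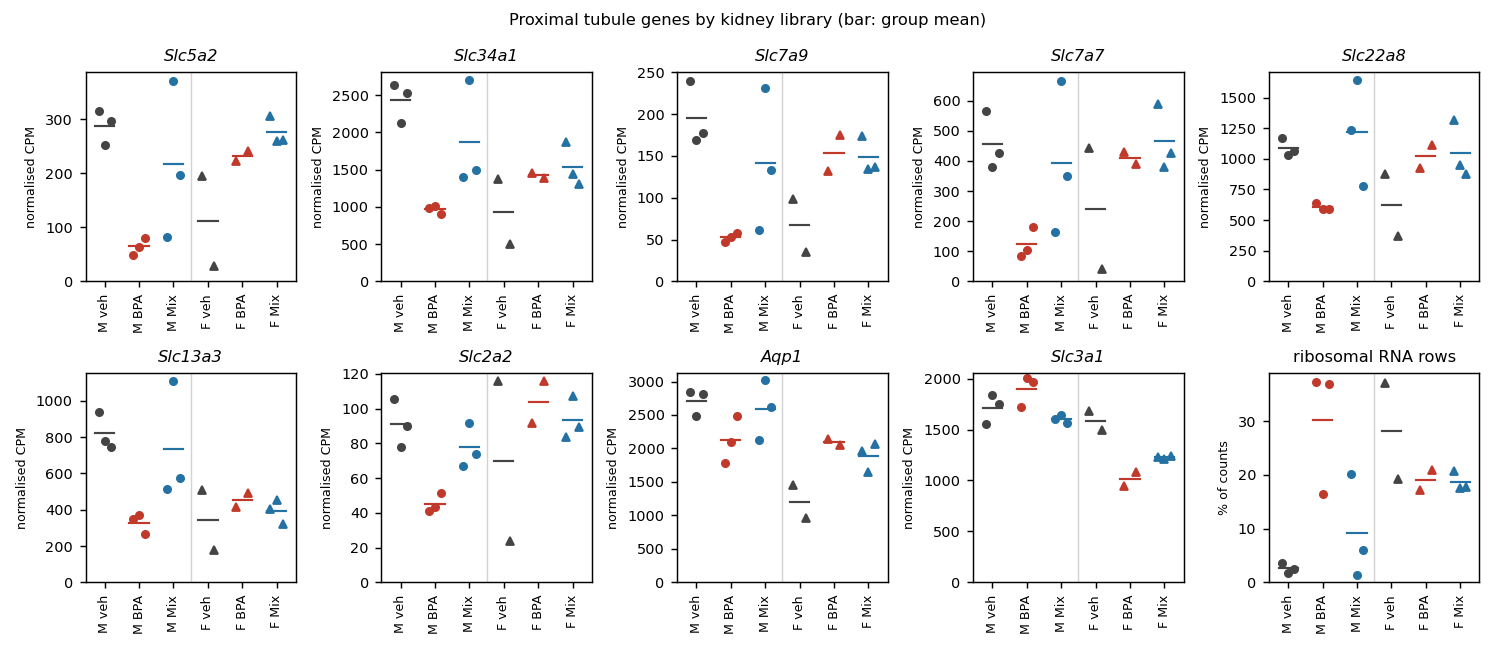
Normalised CPM per kidney library for 9 proximal tubule genes, and the percentage of counts in ribosomal RNA rows, by sex and treatment (males circles, females triangles, bar for the group mean). For Slc5a2, Slc34a1 and Slc7a9 the male BPA libraries lie below the male vehicle libraries, while the ribosomal RNA percentage lies above them.

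These 4 calls were close to the threshold and did not hold under every setting. Without the second Mix library the log2 differences were 1.10 for Slc5a2, 0.72 for Slc22a8, 0.73 for Slc13a3 and 0.63 for Slc2a2 (adjusted p from 0.0787 to 0.136), and leaving out any vehicle or BPA library left 0 calls. With the ribosomal RNA share as a covariate they were 0.57, 0.94, 0.52 and 0.64 (adjusted p from 0.320 to 0.809). In the same comparison 7 of 10 stromal genes fell (Col3a1 by a log2 difference of 1.81, Col1a2 by 1.49, Col1a1 by 1.43 and Tcf21 by 1.20), C1qc of the macrophage list fell by 1.18, and all 12 germ cell genes rose. Of 92 further segment genes and injury markers, edgeR called 0, with 16 at an unadjusted p below 0.05, and DESeq2 called 4.

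In females, no nephron gene passed the test between treatments. For BPA against vehicle edgeR called 0 of 38, against 0.0% of 10681 genes, with 12 of the 38 and 1754 of all genes below an unadjusted p of 0.05; DESeq2 called 7 of the 38, 2 higher and 5 lower, and 311 of all genes. The smallest p belonged to Lrp2, Slc2a5 and Aqp1. Lrp2 was at 2217 and 1654 normalised CPM in vehicle and 769 and 876 in BPA libraries (log2 difference -1.22 ± 0.31, SE; adjusted p = 0.152). Slc2a5 was at 63.1 and 48.6 against 20.9 and 27.7 (-1.19 ± 0.32, SE; adjusted p = 0.160), and Aqp1 at 1446 and 958 against 2140.4 and 2051 (0.81 ± 0.25, SE; adjusted p = 0.188). All 3 had separated groups. In all 12 genes lay lower and 5 higher in every BPA library, found in 22.6% and 21.9% of genes at this group size.

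For Mix against vehicle in females, 0 of 38 genes were called by edgeR, against 0.0% of all genes, with 4 of the 38 and 1111 of all genes at an unadjusted p below 0.05; DESeq2 called 0 of the 38 and 65 of all genes. Slc7a9 was at 99.0 and 34.6 normalised CPM in vehicle and 174, 134 and 137 in Mix libraries (1.16 ± 0.38, SE; adjusted p = 0.391). Aqp1 was at 1955, 1648 and 2059 in Mix libraries (0.65 ± 0.23, SE; adjusted p = 0.393), and Aqp2 was at 414 and 439.8 in vehicle and 206, 356 and 294 in Mix libraries (-0.58 ± 0.24, SE; adjusted p = 0.446). The 3 genes had separated groups; in all 5 genes lay above and 4 below, found in 13.9% and 13.3% of genes.

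For Mix against BPA in females edgeR called 0 of 38, against 0.0% of all genes, with 3 of the 38 and 779 of all genes at an unadjusted p below 0.05; DESeq2 called 0 of the 38 and 12 of all genes. Slc2a5 was at 41.8, 43.9 and 75.2 normalised CPM in Mix libraries, all above the BPA values (log2 difference 1.14, 95% interval 0.47 to 1.81; adjusted p = 0.683). Lrp2 was at 2251, 1249.7 and 1393 in Mix libraries (0.98, 95% interval 0.34 to 1.63; adjusted p = 0.683) and Cubn at 563, 369.8 and 386 in Mix against 258 and 256 in BPA libraries (0.77 ± 0.34, SE; adjusted p = 0.683). Each was separated between the groups, as were 14 genes above and 1 (Calb1) below, found in 15.9% and 15.2% of genes. For Slc5a2, called in males, the female log2 difference was 0.24 with a 95% interval of -1.04 to 1.53, which does not show that the substances act alike.

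The female comparisons against vehicle had only 2 vehicle libraries, which differed widely from each other, the second being described above. Slc5a2 was at 195 and 28.2 normalised CPM and Slc7a7 at 442 and 41.0 in female vehicle libraries 1 and 2. Without library 1, library 2 alone stood for vehicle and was assumed to vary like the other groups. Calls from that fit rest on 1 vehicle library, so they are not counted. Of 92 further segment genes and injury markers, edgeR called 0 in each female treatment comparison. For BPA against vehicle 17 were at an unadjusted p below 0.05 and DESeq2 called 3; for Mix against vehicle these numbers were 14 and 1, and for Mix against BPA 4 and 0. Of 53 markers of other cell types edgeR also called 0, with 14, 4 and 10 at an unadjusted p below 0.05 and 5, 0 and 0 called by DESeq2.

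The difference between the sexes in the effect of BPA was tested itself. In the interaction term of the fit of 6 groups, 4 of 38 genes were called, all with a higher BPA effect in females, against 2.57% of all genes in that direction and 4.73% in either. They are proximal tubule genes. Slc7a9 had a female minus male difference in log2 effect of 3.10 ± 0.61 (SE; adjusted p = 0.0171) and was at 132 and 175 normalised CPM in female BPA libraries. Slc34a1 had 1.94 ± 0.48 (SE; adjusted p = 0.0350), from 1368 and 499 in female vehicle and 1457 and 1389 in female BPA libraries. In both genes male BPA libraries lay below male vehicle libraries, whereas female BPA libraries lay above both female vehicle libraries.

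Slc5a2 had 3.21 ± 0.81 (SE; adjusted p = 0.0367), with 223 and 240.1 normalised CPM in female BPA libraries. Aqp1 had 1.16 ± 0.32 (SE; adjusted p = 0.0495), its male values being 2850.1, 2485 and 2807 in vehicle and 1788, 2089.9 and 2486 in BPA libraries. Male Aqp1 groups overlapped, and the female groups did not. All 4 calls were lost without the second female vehicle library, with values of 2.54 for Slc7a9 (adjusted p = 0.0688), 1.39 for Slc34a1 (0.103), 2.41 for Slc5a2 (0.0888) and 0.90 for Aqp1 (0.159). They were also lost with the ribosomal RNA share as a covariate, at 2.96, 2.19, 3.44 and 1.22 (adjusted p from 0.225 to 0.311). Without the first female vehicle library they were 4.08, 2.88, 5.23 and 1.52.

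The same interaction was called for 5 of 35 further proximal tubule genes. These were Cyp27b1 (4.73 ± 1.19), Slc34a3, the NaPi-IIc phosphate cotransporter (3.18 ± 0.83), Fbp1 of gluconeogenesis (1.90 ± 0.40), the transcription factor Hnf4a (1.40 ± 0.30) and the scaffold protein Pdzk1 (1.25 ± 0.30). Kcnj16 of the thick limb list was also called (1.37). In the opposite direction were 8 of 10 stromal genes, led by Tcf21 (-3.24), Pdgfrb (-2.92), Dcn (-2.37) and Col1a1 (-2.13), and the endothelial genes Pecam1 (-1.26) and Flt1 (-1.19). Stromal sums were 1179.8 and 1565 CPM in female vehicle and 731 and 1043 CPM in female BPA libraries, opposite to males.

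For Mix the interaction called 0 of 38 genes, against 0.00858% of all genes; 4 of the 38 and 1180 of all genes were below an unadjusted p of 0.05, and DESeq2 called 0 of the 38 and 45 of all genes. The smallest p belonged to Slc7a9 (1.62 ± 0.57, SE; adjusted p = 0.378), Slc34a1 (1.10 ± 0.46, SE; adjusted p = 0.448) and Aqp1 (0.72 ± 0.31, SE; adjusted p = 0.455).

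Outside the kidney, 18 treatment comparisons in liver, thyroid, testis and ovary gave 5 calls among the nephron genes, where 1.02% of all gene tests were called. Only 12 to 22 of the 39 genes had enough reads to be tested in these organs. The 5 calls over all 18 comparisons are not read as an excess over the pooled share. Apart from Slc5a1 in the female liver, the calls were in the ovary against vehicle. There calls were common over all genes, at the shares given below, which exceed the pooled share. Slc7a8 rose in the ovary with both treatments. It was at 171, 121 and 105 CPM in vehicle, 385, 315 and 281 in BPA and 273, 176 and 287 in Mix libraries. All treated libraries exceeded all vehicle libraries. The log2 differences were 1.02 ± 0.19 for BPA (SE; adjusted p = 0.0100) and 0.73 ± 0.19 for Mix (SE; adjusted p = 0.0324), against 6.79% and 9.12% of all genes called.

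Slc2a5 fell in the ovary, from 50.6, 48.1 and 36.2 CPM in vehicle to 9.69, 7.61 and 16.1 in BPA and 9.32, 24.7 and 13.8 in Mix libraries, without overlap. It was 4.93-fold lower with BPA (log2 difference -2.30 ± 0.36, SE; adjusted p = 0.00445) and 3.12-fold lower with Mix (-1.64 ± 0.35, SE; adjusted p = 0.0154). Both treatments share the vehicle libraries. The BPA calls held without any 1 of the 9 ovary libraries, while the Mix call was lost in 4 of 9 cases for Slc7a8 and 3 of 9 for Slc2a5.

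Slc5a1, the SGLT1 glucose and galactose transporter, rose in the female liver with BPA (log2 difference 6.49 ± 1.22, SE; adjusted p = 0.0394; 0.419% of all genes called). Its counts were 2, 0 and 0 in vehicle, 194, 41 and 19 in BPA and 193, 77 and 19 in Mix libraries. Every treated library exceeded every vehicle library, and the fitted value rests on a vehicle group with 2 counts in all. Summed counts of 254 against 2 gave a ratio of 127.9 (exact 95% interval 35.0 to 1062, counting error only) for BPA, and 289 against 2 gave 137 (37.6 to 1138) for Mix. Mix missed the threshold (6.73 ± 1.21, SE; adjusted p = 0.0659; 0.0523% of all genes called). In the male liver counts were 1, 0 and 0 in vehicle, 17, 3 and 0 in BPA and 14, 0 and 1 in Mix libraries, too low to be tested. The female BPA call was lost without any vehicle library, without the first BPA library or without the second Mix library.

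In the remaining comparisons edgeR called 0 of the nephron genes. In the male liver, with 19 of them tested, 0.228% of all genes were called for BPA against vehicle, 0.321% for Mix against vehicle and 0.0103% for Mix against BPA; 0, 1 and 0 nephron genes were at an unadjusted p below 0.05 and DESeq2 called 0. In the thyroid 0.0% of all genes were called in 5 comparisons and 0.00899% in females given Mix against vehicle. There 2 to 5 nephron genes were at an unadjusted p below 0.05 in each, and DESeq2 called 1 in males (Mix against BPA) and 1 each in females given BPA or Mix against vehicle. In the testis 0.775% of all genes were called for Mix against BPA and 0.0% in the other comparisons, with 1 to 7 nephron genes at an unadjusted p below 0.05 and 0 called by DESeq2. For Mix against BPA 0.212% of all genes were called in the ovary and 0.0% in the female liver, with 0 nephron genes at an unadjusted p below 0.05 or called by DESeq2 in either.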

How the data were processed

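The authors deposited raw read counts per gene for 70 libraries in 1 table. Per the labels' protocols, TRIzol was used for RNA and a QuantSeq 3′ kit for library preparation; per the submitters' processing notes, FastQC, Bowtie2, bedtools and edgeR were used with build rn6, with no versions given. Strand use and the handling of reads that map to several places are not given in the sources used here, so Scnn1g and Scnn1b, Slc6a19 and Slc6a18, and Slc22a8 and Slc22a6, which are neighbours on chromosome 1, are read with that limit. Counts per library ran from 4803807 to 10929957.

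From these counts, edgeR 4.0.16 (R 4.3.3; filterByExpr by group, TMM) gave quasi-likelihood tests with Benjamini-Hochberg adjustment over all genes and a threshold of 0.05. Each sex and organ was fitted alone for treatment, and all 16 kidney libraries in 6 groups for sex and interaction. CPM of single genes use TMM over kidney libraries within the kidney and library totals across organs. Sums over marker lists use library totals within the kidney too. DESeq2 1.42.0 and other settings were alternatives. The fit was tested on simulated data. The replicate number was not used as a block. No 2 libraries of a kidney group agreed within sampling noise.

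The genes, the marker lists (further segment genes, tubule injury, germ cell, stromal, smooth muscle, endothelial, macrophage, erythroid, adipocyte, adrenal, hepatocyte) and the alternatives were chosen with earlier results of these data known. Per-library values are printed for genes past the threshold, for the 3 smallest p where none passed, for the 2 genes with the highest vehicle level per segment and for the 5 with the highest ratio of another organ to kidney. From each list up to 4 passing genes are named by size; 1 podocyte list gene is not reported here. Slc5a2, Slc7a9, Slc7a7, Slc6a19, Slc13a3, Slc9a3, Slc4a4, Lrp2, Cubn and Slc3a1 in males given BPA, and Lrp2 and Slc22a8 in other organs, were added after their values were seen, as were list genes named beyond 4 in a comparison. Promoter sequences are from RefSeq, assembly GRCr8, and their coordinates were not set against rn6.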

Additional observations from a re-analysis of the deposited data

Results flagged for a closer look

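For 4 proximal tubule genes the effect of BPA differed between the sexes by the interaction term of edgeR's quasi-likelihood test over 16 kidney libraries. The female minus male difference in log2 effect was 3.21 for Slc5a2, 1.94 for Slc34a1, 3.10 for Slc7a9 and 1.16 for Aqp1. In males all 3 BPA libraries lay below all 3 vehicle libraries for Slc5a2, Slc34a1 and Slc7a9, while in females both BPA libraries lay above both vehicle libraries for these 3 genes and for Aqp1. Over all genes tested, 18.2% had the male pattern and 21.9% the female pattern. All 4 calls were lost without the second female vehicle library, and also with the ribosomal RNA share as a covariate. With 2 or 3 libraries in a kidney group, no library could be tested as standing apart within its group.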

How the results depend on the processing

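The number of nephron genes called moved with the settings in most kidney comparisons, and the cause was not tested. Calls over all genes moved as well and are given below as ranges. The numbers here are therefore not read as particular to the nephron genes. For males given BPA against vehicle, 0 calls became 10 with DESeq2, 7 without a filter on low counts, 7 with the replicate block and 1 in a joint fit of all kidney libraries. For males given Mix against BPA, 4 became 11 with DESeq2, 8 without the filter, 1 with the ribosomal RNA share as a covariate, 0 without rows enriched in testis (log2 differences 0.80 to 1.76, all at an adjusted p of 0.130) and 0 in the joint fit. For females given BPA against vehicle, 0 became 7 with DESeq2, 5 without the filter and 16 with the covariate. For females given Mix against vehicle, 0 became 1 without the filter and 12 with the covariate. The ribosomal RNA share was 37.1% in female vehicle library 1 and 17.2% to 20.9% in all other female kidney libraries. In females the covariate therefore mainly set that library apart, which left the second vehicle library as the main reference. For the interaction of sex and BPA, 4 became 15 with DESeq2, 9 without the filter and 0 with the covariate. Outside the kidney, 5 became 9 with DESeq2 and 11 without the filter.

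Leaving out 1 library gave 0 to 11 calls for male BPA against vehicle (11 without Mix 1, 9 without Mix 2), 0 to 0 for male Mix against vehicle and 0 to 8 for male Mix against BPA. It gave 0 to 15 for female BPA against vehicle, 0 to 13 for female Mix against vehicle, 0 to 0 for female Mix against BPA, 6 to 11 for sex, 0 to 13 for the interaction with BPA (11 without male Mix 1, 13 without female vehicle 1), 0 to 5 for the interaction with Mix (5 without female vehicle 1), 3 to 8 outside the kidney and 30 to 34 for genes highest in every kidney library.

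Over all genes, the settings other than leaving out a library gave 1 to 869 calls for male BPA against vehicle (15 as reported), 3 to 88 for male Mix against vehicle (3) and 8 to 693 for male Mix against BPA (322). They gave 0 to 994 for female BPA against vehicle (0), 0 to 403 for female Mix against vehicle (0), 0 to 12 for female Mix against BPA (0), 714 to 1686 for sex (1340), 1 to 1278 for the interaction with BPA (551) and 0 to 45 for that with Mix (1). Leaving out 1 library gave 0 to 886, 2 to 19, 20 to 653, 0 to 806, 0 to 329, 0 to 1, 981 to 1467, 2 to 1259 and 0 to 65 in the same order. DESeq2's size factors in edgeR changed no count of nephron genes called. Of 378 alternative values of called genes, 282 kept the call, 96 lost it and 0 changed sign. Deviations of libraries with the same replicate number correlated at -0.0488 to 0.222 in males and -0.213 to 0.0470 in females, not over 0.1 in every pair, and not every male library correlated best with its own number. The replicate block called 5 genes for male Mix against BPA, 8 for sex and 4 for the interaction with BPA; under it Slc2a2 for male Mix against BPA (adjusted p = 0.0671) and Aqp1 for the interaction with BPA (adjusted p = 0.0585) lost their calls. Depth limits Slc5a1, Trpv5, Slc6a19 and the sodium channel subunits most. Slc5a1 had 8 to 67 and Trpv5 10 to 71 counts in a kidney library.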

Other observations

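Some genes of the list kept similar values over all 16 kidney libraries while their neighbours in the same segment varied. Slc9a3 lay between 32.7 and 52.6 normalised CPM in every kidney library, whereas Slc5a2 ran from 28.2 to 370.0. The calcium-handling genes of the distal tubule, Trpv5 (the apical calcium channel) and Calb1 (calbindin, its cytosolic calcium carrier), passed no kidney test. Calb1 was at 206, 146 and 170.4 in male vehicle, 160.3, 162 and 84.9 in male BPA, and 152, 136 and 119.7 in male Mix libraries, with overlapping groups. In females it was at 106 and 286 in vehicle, 225 and 219 in BPA, and 184, 119 and 189.9 in Mix libraries, the vehicle libraries spanning the whole range.

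Hsd11b2, which protects the mineralocorticoid receptor of the collecting duct from glucocorticoids, was at 157, 139 and 154 normalised CPM in male vehicle, 138, 136 and 97.5 in male BPA, and 132, 152 and 114 in male Mix libraries. Its female vehicle libraries were at 84.3 and 270.5, its BPA libraries at 115 and 229, and its Mix libraries at 212, 152 and 183. The channel subunit Scnn1a was at 32.9, 29.6 and 38.9 in male vehicle and 29.3, 23.5 and 26.0 in male BPA libraries, all of the latter lower. None of the 7 collecting duct genes of the list passed a kidney test by edgeR.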
